A study of Rattus norvegicus with 48 samples.

Results

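The genes described here carry out quinone reduction (Nqo1), thioredoxin-based reduction (Txnrd1, Txn1, Prdx1, Srxn1) and steps of metabolism that feed or run beside NADPH supply (Pgd, Taldo1, Tkt, Me1). They were chosen by symbol, 9 in all, with earlier results of these data known. They were read in every library of an RNA-seq series of rat primary cortical cultures. Of the 9 listed symbols 7 had a row among the 30211 genes of the table (Nqo1, Txnrd1, Txn1, Prdx1, Taldo1, Tkt and Me1), while Srxn1 and Pgd were not analysed here. All 7 passed the filter on low values. The cultures came from 18-day-old Sprague-Dawley fetuses and were mixed, holding neurons and glia, although the labels name the cell type as neuron; they were used at DIV 21 (days in vitro). There were 48 libraries in 16 groups of 3. Control cultures received none of these agents. Cocaine cultures had cocaine (25 µM, 24 h), Tat cultures the HIV-1 protein Tat 1-86 (6 ng/mL, 48 h), and Tat-Cocaine cultures both. In the study's figure legends, cocaine was added for 24 h after the 48 h of Tat. The study does not say whether cultures without cocaine were kept those 24 h longer, so time may differ along with cocaine. Of 4 small molecules, each present for 48 h, every one was given alone, with Tat (for example Tat-4OI) and with Tat and cocaine (for example Tat-Cocaine-4OI). They were 4OI (4-octyl itaconate, a cell-permeable itaconate ester, 250 µM), Amlexanox (an inhibitor of the kinases TBK1 and IKKε, 25 µM), Tazemetostat (an inhibitor of the methyltransferase EZH2, 3 µM) and Senicapoc (a blocker of the potassium channel KCa3.1, 1 µM). In the study's methods 4OI came from a stock in DMSO and no solvent control is described, so ester and solvent cannot be told apart. The labels do not say whether the 3 libraries of a group came from separate preparations of cells, so p-values measure only the spread between these libraries.

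Nrf2 is a transcription factor that the adaptor Keap1 holds at a low level until its cysteines are modified by electrophiles or oxidants. Nrf2 then pairs with small Maf proteins and binds antioxidant response elements in DNA. Its targets include the cytosolic quinone reductase Nqo1, thioredoxin reductase Txnrd1, which uses NADPH to reduce thioredoxin (Txn1), and Prdx1, a peroxidase that thioredoxin recycles. Taldo1 (transaldolase) and Tkt (transketolase) form the non-oxidative arm of the pentose phosphate pathway, and Me1, the cytosolic malic enzyme, makes NADPH while turning malate into pyruvate. In the brain the Nrf2 pathway is best known from astrocytes.

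The sequence around the start of each gene was read from RefSeq (build GRCr8), as windows from 250 bases before to 50 bases after an annotated start. The antioxidant response element core TGACNNNGC was searched on both strands. It occurred in 12.1% of all 33469 rat windows and in 3 of the 8 windows of the 7 genes. These were the windows of Me1, Prdx1 and 1 of the 2 of Txnrd1. A match describes the letters in the window and is not a measured binding site, and no match says only that the core is absent from these 300 bases. The 3 windows with a match are printed with it in capitals, beside those of Nqo1 and Taldo1, which had the largest differences with 4OI and no match. Me1 lies at chr8:96540195-96540494, Txnrd1 at chr7:22755855-22756154, Prdx1 at chr5:135383656-135383955, Nqo1 at chr19:52220218-52220517 and Taldo1 at chr1:205922946-205923245. Prdx1 and Taldo1 are on the plus strand and the others on the minus strand, and all are written 5′ to 3′ along the gene.
Me1: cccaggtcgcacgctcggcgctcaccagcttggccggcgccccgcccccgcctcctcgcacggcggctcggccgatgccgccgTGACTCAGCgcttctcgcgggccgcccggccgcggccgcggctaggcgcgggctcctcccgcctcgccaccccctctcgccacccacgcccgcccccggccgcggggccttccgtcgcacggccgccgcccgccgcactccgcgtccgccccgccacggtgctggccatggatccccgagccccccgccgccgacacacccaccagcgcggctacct
Txnrd1: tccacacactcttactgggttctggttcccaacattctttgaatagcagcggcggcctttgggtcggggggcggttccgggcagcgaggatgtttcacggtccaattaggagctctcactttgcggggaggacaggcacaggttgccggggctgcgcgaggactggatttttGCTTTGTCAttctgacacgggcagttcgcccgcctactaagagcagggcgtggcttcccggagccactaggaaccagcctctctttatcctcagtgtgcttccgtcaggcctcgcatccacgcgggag
Prdx1: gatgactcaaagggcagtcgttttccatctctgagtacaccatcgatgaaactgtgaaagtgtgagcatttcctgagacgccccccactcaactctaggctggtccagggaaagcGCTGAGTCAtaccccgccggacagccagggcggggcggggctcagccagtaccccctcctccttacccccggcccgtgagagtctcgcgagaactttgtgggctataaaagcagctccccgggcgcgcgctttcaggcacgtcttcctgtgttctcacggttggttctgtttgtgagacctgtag
Nqo1: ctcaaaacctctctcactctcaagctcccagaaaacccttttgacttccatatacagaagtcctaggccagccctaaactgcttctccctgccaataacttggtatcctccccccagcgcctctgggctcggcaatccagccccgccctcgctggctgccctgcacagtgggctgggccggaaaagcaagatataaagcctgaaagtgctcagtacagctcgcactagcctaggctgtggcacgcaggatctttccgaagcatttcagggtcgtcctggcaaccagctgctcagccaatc
Taldo1: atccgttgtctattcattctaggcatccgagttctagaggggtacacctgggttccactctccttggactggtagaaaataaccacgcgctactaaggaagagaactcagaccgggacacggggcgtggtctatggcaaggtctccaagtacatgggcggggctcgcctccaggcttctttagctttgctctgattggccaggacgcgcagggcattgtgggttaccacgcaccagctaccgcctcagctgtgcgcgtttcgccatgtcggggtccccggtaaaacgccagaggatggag
The Me1 match starts 167 bases before the annotated start and reads in the gene's direction. The matches of Txnrd1 and Prdx1 start 78 and 135 bases before it and read in the opposite direction.

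Expression is given as CPM, the authors' depth-normalised and TMM-scaled read abundance per gene, and differences as differences in log2(CPM + 0.5). They were tested with limma in 1 fit to all 48 libraries over 15890 genes, and a gene was called where the Benjamini-Hochberg adjusted p was under 0.05. Depth, recovered from the smallest steps between CPM values, was 17520000 to 29060000 reads on genes per library, and the 7 genes had between 1298 reads (Nqo1, lowest library) and 18172 reads (Prdx1, highest library) each. CPM does not correct for transcript length, so levels are compared between groups and not between genes. One library stood apart: Cocaine replicate 3 had a sum of 25400 CPM over 6 oligodendrocyte markers, where the other 47 libraries had 158 to 2233. It enters the mean of the Cocaine group and, through the common fit, the estimate of spread in every comparison. Leaving it out changed no call of the 7 genes in Cocaine against Control. Markers of neurons (10 of 10 listed), astrocytes (9 of 9) and microglia and macrophages (10 of 10) were present at a mean of at least 0.5 CPM. In bulk libraries of mixed cultures, a change in the number of cells of a type and a change in RNA per cell cannot be told apart.

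**Figure D1:**
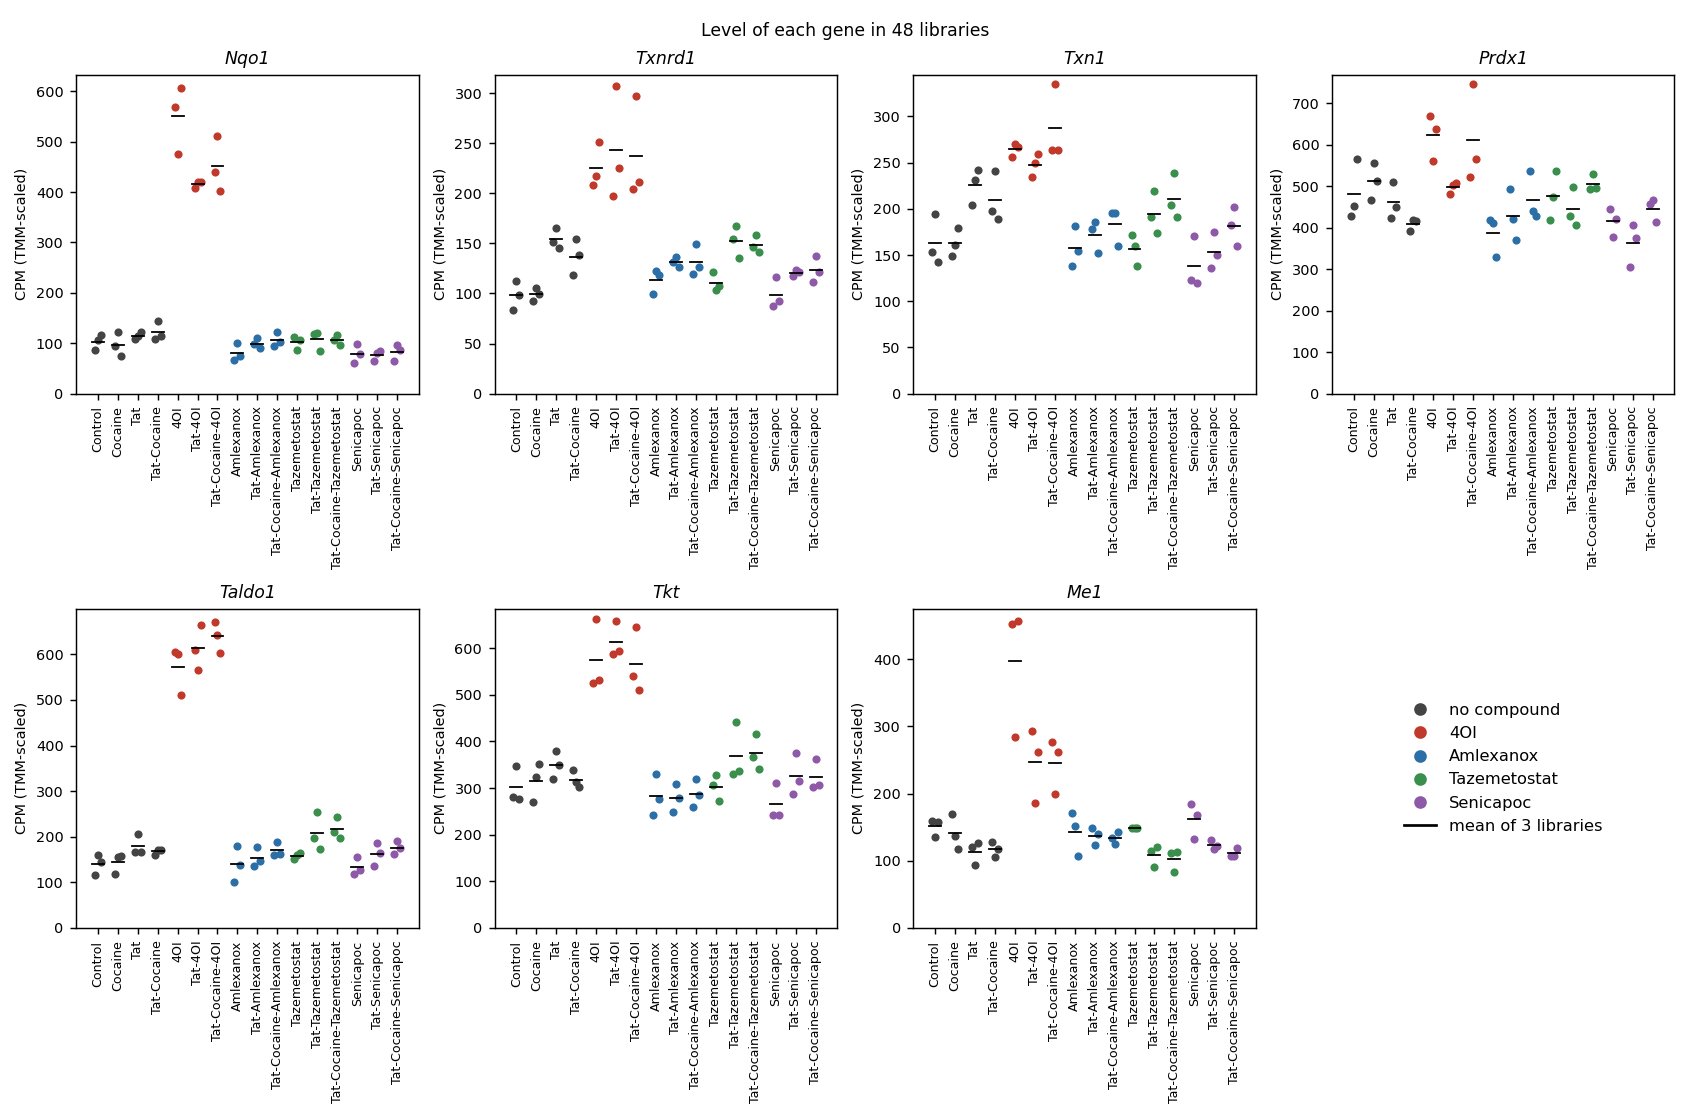
Level of the 7 genes in CPM (vertical axis, from 0) in each of 48 libraries, by group (horizontal axis). Points are libraries, colours mark the small molecule and bars the mean of 3; in Nqo1, Txnrd1, Taldo1, Tkt and Me1 the 9 libraries with 4OI lie above all 39 others.

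The first question was what 4OI did to these genes in cultures with and without Tat and cocaine. Nqo1, Txnrd1, Taldo1, Tkt and Me1 were higher with 4OI in each of the 3 backgrounds, by 5.32-fold (Nqo1) to 1.55-fold (Txnrd1 with Tat). Txn1 and Prdx1 had smaller differences, which were above 0 in 3 of 3 backgrounds but not called in each. Against Control, 6 of 7 genes were called higher, where 2.47% of all genes were. Against Tat it was 5 of 7, where 6.10% of all genes were, and against Tat-Cocaine 7 of 7, where 4.07% were. The last count was 6 with no filter on low values and under each of the 3 rescalings, where Txn1 was not called. Over the 3 backgrounds together 7 of 7 were called higher, where 11% of all genes were, and 0 of 7 were lower in any of the 4 comparisons. The genes were chosen with earlier results of these data known, so these counts are not an independent test of them as a set. The median difference of the 7 genes was 1.20 against Control, 0.81 against Tat and 0.82 against Tat-Cocaine on the log2 scale. When each comparison was instead fitted on its own libraries, 5, 4 and 4 of the 7 genes were called against Control, Tat and Tat-Cocaine. With all libraries rescaled to the same sum, the share of higher genes among all calls fell from 78.2% to 55.0% against Control, from 55.3% to 35.2% against Tat-Cocaine and from 48.3% to 29.8% over the 3 backgrounds. Under quantile normalization it went from 39.2% to 50% against Tat.

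Nqo1 reduces quinones to hydroquinones with NADH or NADPH. Its level was 87.1, 106.2 and 116.4 CPM in Control libraries, and 568.5, 476.3 and 606.1 CPM in 4OI libraries. It was 108.6, 113.7 and 121.5 CPM with Tat, and 407.1, 420.9 and 420.6 CPM with Tat-4OI. With Tat-Cocaine it was 109.0, 143.2 and 114.1 CPM, and with Tat-Cocaine-4OI 438.9, 512.0 and 402.4 CPM. The groups did not overlap: the lowest of the 9 libraries with 4OI (402.4 CPM) was above the highest of the other 39 (143.2 CPM). The log2 difference was 2.41 ± 0.18 (SE, n = 3 per group, limma adjusted p = 8.8e-12) against Control, 1.86 against Tat and 1.88 against Tat-Cocaine. Over the 3 backgrounds it was 2.05 ± 0.10 (limma adjusted p = 3.6e-17), the largest of the 7. By level, the 4OI group (mean 550.3 CPM) came first, followed by Tat-Cocaine-4OI (451.1 CPM) and Tat-4OI (416.2 CPM). The other 13 groups had means from 76.4 CPM (Tat-Senicapoc) to 122.1 CPM (Tat-Cocaine). Neighbours in this order overlapped, except Tat-4OI and Tat-Cocaine.

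Txnrd1 encodes the cytosolic enzyme that passes electrons from NADPH to thioredoxin. It was at 83.4, 112.1 and 98.6 CPM in Control and at 208.4, 217.0 and 251.0 CPM in 4OI libraries. With Tat it was at 151.2, 165.0 and 145.5 CPM, and with Tat-4OI at 197.6, 307.4 and 224.9 CPM. Tat libraries thus started higher, and replicate 2 was the highest library of both the Tat-4OI and the Tat-Cocaine-4OI group (296.8 CPM in the latter). The log2 difference with 4OI was 1.20 ± 0.14 (limma adjusted p = 2.1e-07) against Control, 0.64 ± 0.14 (0.0018) against Tat and 0.78 ± 0.14 (0.00029) against Tat-Cocaine. Fitted on their own libraries, the last 2 had an adjusted p of 0.061 and 0.13.

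Txn1 is thioredoxin itself, the small protein that reduces disulfides in many partners. It was at 153.7, 193.9 and 142.0 CPM in Control and at 256.6, 269.9 and 266.6 CPM with 4OI, with no overlap. The log2 difference was 0.71 ± 0.14 (limma adjusted p = 0.0016), and fitted on its own libraries it was not called (adjusted p = 0.071). In Tat libraries (204.3, 230.9 and 242.0 CPM) and Tat-4OI libraries (234.4, 249.4 and 259.9 CPM) the groups overlapped, with a log2 difference of 0.14 (95% interval -0.15 to 0.42, limma adjusted p = 0.51). Against Tat-Cocaine the difference was 0.46 ± 0.14 (limma adjusted p = 0.039). That call was lost without Tat-Cocaine replicate 1 (adjusted p = 0.14) or replicate 3 (0.12), and without Tat-Cocaine-4OI replicate 2 (0.20) or replicate 3 (0.059). It was also lost with no filter on low values (adjusted p = 0.056), with libraries rescaled to the same sum (0.068) or by median ratios (0.057), under quantile normalization (0.066) and fitted on its own libraries (0.23).

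Prdx1 breaks down hydrogen peroxide and is reduced again by thioredoxin. Its libraries overlapped between Control (426.9, 452.5 and 565.0 CPM) and 4OI (669.1, 561.3 and 638.3 CPM), with a log2 difference of 0.38 (95% interval 0.11 to 0.64, limma adjusted p = 0.13). Against Tat the difference was 0.11 (-0.15 to 0.38, adjusted p = 0.57). In Tat-Cocaine it went from 391.6, 419.4 and 415.5 CPM to 522.1, 746.9 and 566.0 CPM, which did not overlap. There the log2 difference was 0.56 ± 0.13 (limma adjusted p = 0.0053), and 0.41 (adjusted p = 0.061) without Tat-Cocaine-4OI replicate 2. Fitted on its own libraries, it had an adjusted p of 0.18. The Tat-Cocaine mean was itself low, at rank 14 of the 16 groups. Tat-Cocaine-Amlexanox (mean 467.4 CPM) and Tat-Cocaine-Tazemetostat (505.5 CPM) also lay above it with no overlap, though neither was called. Tat-Cocaine-Senicapoc overlapped it. Prdx1 had the smallest difference over the 3 backgrounds, 0.35 ± 0.08 (limma adjusted p = 0.00067).

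Taldo1 transfers carbon units between sugar phosphates. It was at 115.5, 160.2 and 143.9 CPM in Control and 605.5, 600.4 and 510.5 CPM with 4OI. With Tat it was at 166.8, 204.9 and 166.9 CPM, and with Tat-4OI at 610.0, 565.4 and 664.0 CPM. All 9 libraries with 4OI (510.5 to 671.3 CPM) were above the 39 others (100.3 to 254.2 CPM). The log2 differences were 2.04 ± 0.16 against Control, 1.77 against Tat and 1.93 against Tat-Cocaine, and 1.91 ± 0.09 over the 3 backgrounds (limma adjusted p = 9.1e-18).

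Tkt, the other transfer enzyme of this arm of the pathway, had smaller differences. It was at 281.1, 347.7 and 276.3 CPM in Control and at 525.8, 663.3 and 532.3 CPM with 4OI. The groups did not overlap, nor did those of Tat (318.8 to 380.4 CPM) and Tat-4OI (588.0 to 657.9 CPM). Its log2 difference was 0.93 ± 0.14 against Control (limma adjusted p = 2.0e-05), 0.81 against Tat and 0.82 against Tat-Cocaine.

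Me1 was at 159.4, 135.4 and 158.2 CPM in Control and at 453.0, 283.8 and 456.2 CPM with 4OI. Replicate 2 was the lowest library of all 3 groups with 4OI (283.8, 185.4 and 198.8 CPM). Even so, all 9 libraries with 4OI (185.4 to 456.2 CPM) were above the 39 others (83.3 to 183.9 CPM), though the lowest was only just above. The log2 difference was 1.36 ± 0.18 against Control (limma adjusted p = 3.0e-06), 1.11 against Tat and 1.06 against Tat-Cocaine.

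**Figure D2:**
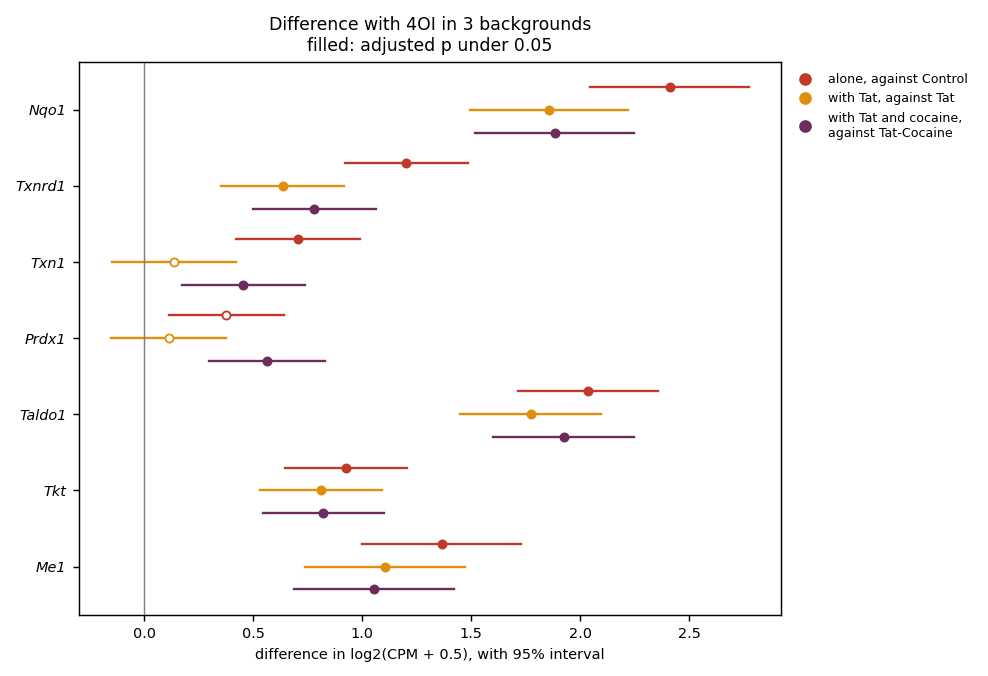
Difference in log2(CPM + 0.5) with 4OI (horizontal axis) for the 7 genes (vertical axis) in 3 backgrounds, with 95% intervals from limma. Filled points have an adjusted p under 0.05. Nqo1 and Taldo1 lie between 1.77 and 2.41. Prdx1 against Control (0.38), and Txn1 and Prdx1 with Tat (0.14 and 0.11), are open.

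As a second test, each gene's difference over the 3 backgrounds was set against all 8000 exchanges of labels within backgrounds (exact permutation test, two-sided). For Nqo1, Txnrd1, Taldo1, Tkt and Me1 the p was 0.00025, the smallest this design can give. For Txn1 it was 0.0005 and for Prdx1 0.002 (exact permutation test). Adjusted over the 35 such tests made, the values were 0.0013, 0.0022 and 0.007, and the difference was above 0 in 3 of 3 backgrounds for all 7 genes, also where a single background was not called.

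Whether Tat changed the difference that 4OI made was tested as a contrast of differences. The difference with 4OI was smaller with Tat than in Control in 7 of 7 genes, with log2 values between -0.11 (Tkt) and -0.57 (Txn1). The median was -0.27 for the 7 genes, -0.03 over all genes and -0.28 for 18 tested glutathione and iron genes. Values below 0 were thus not particular to the 7. By limma 0 of 7 were called, where 0.497% of all genes were. The unadjusted p was under 0.05 for 3 of the 7 and for 1896 of all 15890 genes. The share of higher genes among the calls over all genes was 10.1%, and 22.8% with libraries rescaled to the same sum. The log2 value was -0.57 for Txn1 (95% interval -0.97 to -0.17, adjusted p = 0.21), -0.57 for Txnrd1 (-0.97 to -0.17, 0.21) and -0.55 for Nqo1 (-1.07 to -0.04, 0.39). With the replicate number as a block, Txn1 (limma adjusted p = 0.036) and Txnrd1 (0.039) were called in this contrast. With Tat and cocaine 0 of 7 were called, where 0.113% of all genes were. Unadjusted p-values under 0.05 numbered 2 of the 7 there, and 1428 of all 15890 genes. In that contrast 1 of 7 values was above 0 (Prdx1, 0.19), and the median over all genes was -0.04. The contrasts share the 4OI and Control libraries.

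The second question was what Tat did. Txnrd1 and Txn1 were higher in Tat than in Control cultures. These 2 of 7 genes were called higher, where 14.6% of all genes were, and 0 of 7 lower. Txnrd1 was higher by 0.66 ± 0.14 on the log2 scale (1.58-fold, limma adjusted p = 0.00075), and none of its libraries overlapped (83.4 to 112.1 CPM in Control, 145.5 to 165.0 CPM with Tat). Txn1 was higher by 0.48 ± 0.14 (limma adjusted p = 0.012), a call lost without Tat replicate 2 (adjusted p = 0.054), Control replicate 1 (0.060) or Control replicate 3 (0.075). Txn1 was also not called when fitted on the compared libraries alone (0.0845). Nqo1 had a log2 difference of 0.16 (95% interval -0.21 to 0.52), and Me1 of -0.42 (-0.79 to -0.06, limma adjusted p = 0.091). With libraries rescaled to the same sum, Me1 was called (-0.51, adjusted p = 0.049). With the replicate number as a block 5 of 7 genes were called, Taldo1 and Tkt (higher) and Me1 (lower) being added. Over all genes, same-numbered libraries did not deviate together in these groups (correlations of -0.10, 0.30 and -0.57). In both groups, however, replicate 2 was the highest library for Txnrd1, Taldo1 and Tkt and the lowest for Me1. The share of higher genes among all calls was 68.5%, and 49.3% with libraries rescaled to the same sum.

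In Tat-Cocaine against Control cultures 1 of 7 genes was called higher, where 8.63% of all genes were. This was Txnrd1, by 0.48 ± 0.14 (limma adjusted p = 0.017). The call was lost without Control replicate 1 (adjusted p = 0.12) or without Tat-Cocaine replicate 2 (0.10) or replicate 3 (0.052). It was also lost when the compared libraries were fitted alone (0.119). Without Control replicate 2, 2 genes were called. Deviations of same-numbered libraries moved together in these groups, and with the replicate number as a block Txn1 was called as well (0.36, adjusted p = 0.011).

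Tat was also added to each of the small molecules. The Me1 difference was below 0 in 5 of 5 backgrounds, with a log2 value of -0.42 without a compound, -0.68 with 4OI, -0.03 with Amlexanox, -0.46 with Tazemetostat and -0.38 with Senicapoc. In Tat-4OI against 4OI it was the 1 gene of 7 called lower (limma adjusted p = 0.021), where 2.10% of all genes were. This call was lost without 4OI replicate 1 (adjusted p = 0.14) or replicate 3 (0.15) or Tat-4OI replicate 2 (0.23). It was also lost when the compared libraries were fitted alone (0.128). The value with Amlexanox changed sign, to 0.11, 0.02 or 0.04, without Amlexanox replicate 1, Amlexanox replicate 2 or Tat-Amlexanox replicate 2. In Tat-Tazemetostat against Tazemetostat, Txnrd1 was the 1 gene of 7 called higher (0.46 ± 0.14, limma adjusted p = 0.022), where 10.4% of all genes were. It lost its call without Tazemetostat replicate 2 (0.089) or 3 (0.064) or Tat-Tazemetostat replicate 1 (0.054) or 2 (0.14), and without Tat-Tazemetostat replicate 3 there were 2 calls. Fitted on the compared libraries alone, Txnrd1 was not called either (0.0625). The share of higher genes among all calls there was 65.0%, and 53.1% under quantile normalization. In Tat-Amlexanox against Amlexanox (39.6% of all genes called) and Tat-Senicapoc against Senicapoc (16%), 0 of 7 genes were called by limma. The unadjusted p was under 0.05 for 0 and 3 of the 7, and for 7959 and 4721 of all 15890 genes. Under quantile normalization the shares of higher genes among the calls over all genes went from 57.1% to 45.8% and from 67.8% to 49.6%.

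Over the 5 backgrounds together 4 of 7 genes were called higher with Tat, where 29.9% of all genes were, and 1 of 7 lower, where 26.7% were. With shares this high over all genes, the counts do not set the 7 genes apart. Txnrd1 was higher by 0.34 ± 0.06, Taldo1 by 0.26 ± 0.07, Txn1 by 0.20 ± 0.06 and Tkt by 0.18 ± 0.06 on the log2 scale (limma adjusted p = 2.2e-05, 0.0027, 0.0080 and 0.015). Me1 was lower, at -0.39 ± 0.08 (limma adjusted p = 0.00011). Nqo1 (0.02, 95% interval -0.14 to 0.19) and Prdx1 (-0.11, -0.23 to 0.01) were not called. With libraries rescaled to the same sum, Prdx1 was called lower as well, which made 6 of 7. Under exact permutation over 3200000 exchanges within backgrounds, the adjusted p was 0.0013 for Txnrd1 and for Me1, 0.010 for Taldo1, 0.027 for Txn1 and 0.028 for Tkt. The share of higher genes among all calls was 52.9%, and 40.8% under quantile normalization.

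**Figure D3:**
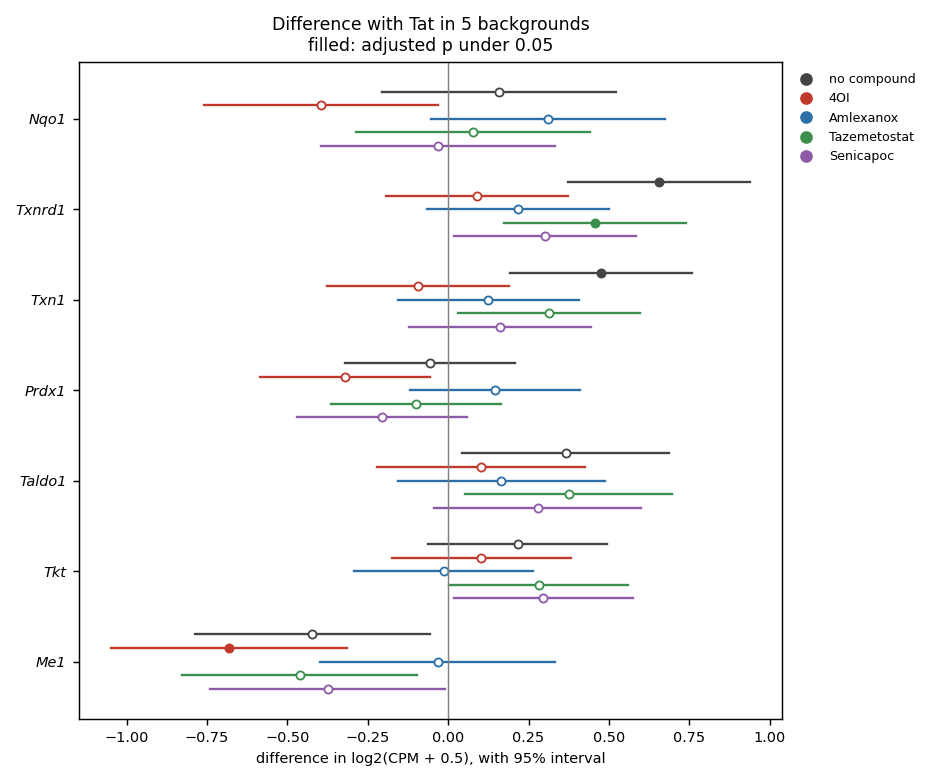
Difference in log2(CPM + 0.5) with Tat (horizontal axis) for the 7 genes (vertical axis) in 5 backgrounds, with 95% intervals from limma. Filled points have an adjusted p under 0.05: Txnrd1 and Txn1 without a compound, Txnrd1 with Tazemetostat, and Me1 with 4OI (-0.68); Me1 is left of 0 in all 5.

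Within groups, microglia and macrophage markers moved with several of these genes, whereas with 4OI the markers were lower and the 7 genes higher. Their sum over 10 markers was 839 to 1375 CPM in Control, 1174 to 2025 CPM in Tat and 614 to 1309 CPM in 4OI libraries. With Tat over 5 backgrounds 5 of the 10 markers were called higher and 1 lower, where 29.9% and 26.7% of all genes were. With 4OI over 3 backgrounds 0 were called higher and 6 lower, where 11% and 11.8% of all genes were. In 15 of the 16 groups replicate 2 had the highest sum. The counts for this sum thus describe mostly that replicate number, and microglia cannot be told apart from other features of that replicate. In the library with the highest sum, Me1 was the lowest of its group in 12 of 16 groups and the highest in 0. Tkt was the highest of its group there in 14 of 16, Txnrd1 in 13, Txn1 and Taldo1 in 11, Nqo1 in 10 and Prdx1 in 7. With 3 libraries per group, some such matches would occur without any tie. In the library with the highest sum of neuron markers Me1 was the highest of its group in 12 of 16 groups. Prdx1 was the lowest there in 13, Txnrd1 in 11 and Txn1 in 10. For astrocyte markers, Txn1 was the lowest of its group in 10, Tkt in 9 and Taldo1 in 8, and Me1 the highest in 8. Me1 was the lowest in 0, and Txn1, Tkt and Taldo1 the highest in 1, 1 and 2. In the library with the highest sum of oligodendrocyte markers Me1 was the highest of its group in 12 of 16 groups, Nqo1 and Txnrd1 were the lowest in 12 each and Prdx1 in 10. With Tat over 5 backgrounds neuron markers were called lower in 7 of 10 and higher in 0, and astrocyte markers lower in 5 of 9 and higher in 2. The part of the cell types in the Tat results was not tested.

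**Figure D4:**
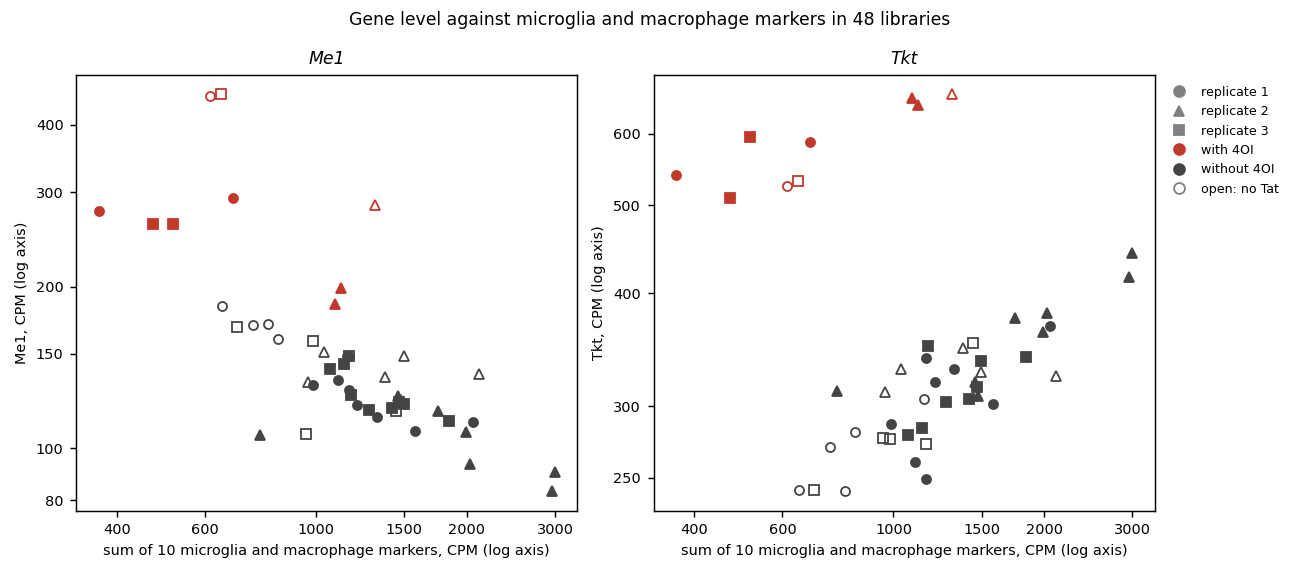
Me1 (left) and Tkt (right) in CPM against the sum of 10 microglia and macrophage markers in CPM, both axes logarithmic, in 48 libraries. Shapes are replicate numbers, red marks 4OI and open symbols mark groups without Tat; libraries with 4OI lie above the others at the same marker sum, and replicate 2 lies furthest right in 15 of 16 groups.

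Cocaine was compared with Control, with Tat as the background and over all 5 Tat backgrounds. In none of these was any of the 7 genes called by limma. Cocaine against Control had 0 of 7 called, where 0.201% of all genes were. The unadjusted p was under 0.05 for 0 of the 7 and for 1996 of all 15890 genes. The share of higher genes among the calls over all genes was 18.8%, and 33.3% under quantile normalization. The log2 differences lay between -0.11 (Me1) and 0.09 (Prdx1), and the widest 95% interval, that of Me1, ran from -0.47 to 0.26. Without Cocaine replicate 3, the library high in oligodendrocyte markers, 0 of 7 were called as well. Tat-Cocaine against Tat had 0 of 7, where 0.0189% of all genes were called, and 0 with an unadjusted p under 0.05, where 1297 of all genes had one. Cocaine added to Tat over 5 backgrounds had 0 of 7, where 4.55% were called, with 1 unadjusted p under 0.05, for Prdx1 (0.15, 95% interval 0.03 to 0.27, limma adjusted p = 0.13). Over all genes 3198 had an unadjusted p under 0.05 in that comparison.

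The other small molecules were given in the same 3 backgrounds as 4OI, each at its own dose. Nqo1 was lower with Senicapoc. It was at 61.2, 97.8 and 77.9 CPM with Senicapoc against 87.1, 106.2 and 116.4 CPM in Control. With Tat it was at 64.4, 80.9 and 84.0 CPM with Senicapoc and 108.6 to 121.5 CPM without, which did not overlap. With Tat and cocaine it was at 65.3, 97.4 and 86.3 CPM with Senicapoc and 109.0 to 143.2 CPM without, again with no overlap. The log2 differences were -0.40, -0.59 and -0.56, none of them called by itself (limma adjusted p = 0.55, 0.11 and 0.18). With the replicate number as a block, Nqo1 (limma adjusted p = 0.0315) and Txn1 (0.0039) were called against Tat. Over all genes, same-numbered libraries did not deviate together there (correlations of -0.30, 0.59 and -0.62). In both groups, however, replicate 1 was the lowest library for Nqo1 and Txn1. Over the 3 backgrounds Nqo1 was lower, at -0.52 ± 0.10 (limma adjusted p = 0.010, exact permutation p = 0.00075), and so was Txn1, at -0.34 ± 0.08 (limma adjusted p = 0.033). These were 2 of 7 genes called lower, where 0.699% of all genes were. Nqo1 kept its call whichever of the 18 libraries was left out. Txn1 lost it in 10 of those 18 cases, namely without replicate 2 or 3 of Tat, replicate 2 of Control or Tat-Cocaine, or replicate 1 or 3 of Senicapoc, Tat-Senicapoc or Tat-Cocaine-Senicapoc (highest adjusted p = 0.099). Txn1 also lost its call when the compared libraries were fitted alone (0.0871). The share of higher genes among all calls was 39.7%, and 23.1% with libraries rescaled to the same sum. The microglia sum was 648 to 963 CPM with Senicapoc and 839 to 1375 CPM in Control, but 987 to 1749 CPM in Tat-Senicapoc and 1174 to 2025 CPM in Tat, and 1418 to 1989 CPM in Tat-Cocaine-Senicapoc against 771 to 1274 CPM in Tat-Cocaine. The Nqo1 difference was below 0 in all 3, while the marker sum was higher in the last; its part in the result was not tested.

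In each background taken alone, 0 of 7 genes were called with Senicapoc, where 0% (against Control), 0.409% (against Tat) and 0.0441% (against Tat-Cocaine) of all genes were. Unadjusted limma p-values under 0.05 numbered 1, 4 and 1 of the 7, and 1378, 2909 and 2466 of all 15890 genes. Against Tat the share of higher genes among all calls was 16.9%, and 34.6% with libraries rescaled to the same sum.

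Amlexanox had 0 of 7 genes called by limma against Control (11.4% of all genes), Tat (0.837%) or Tat-Cocaine (0.925%), and 0 of 7 over the 3 backgrounds (7.99%). Unadjusted p-values under 0.05 numbered 1, 2, 0 and 3 of the 7, and 4154, 1988, 2829 and 3568 of all 15890 genes. Over the backgrounds the 3 were Nqo1 (-0.25, 95% interval -0.46 to -0.04, limma adjusted p = 0.13), Txn1 (-0.21, -0.37 to -0.05, 0.10) and Tkt (-0.19, -0.35 to -0.03, 0.14). The exact permutation test gave adjusted p-values of 0.036, 0.065 and 0.047 for these, over the same 35 tests, with the difference below 0 in 3 of 3 backgrounds. Same-numbered Tat-Amlexanox and Tat libraries deviated together, and with the replicate number as a block Txn1 (-0.40, adjusted p = 0.025) and Tkt (-0.33, 0.021) were called in that comparison. With libraries rescaled to the same sum, the share of higher genes among all calls went from 33% to 22.5% against Control, from 48.1% to 65.9% against Tat and from 37.4% to 15.5% against Tat-Cocaine. Over the backgrounds it went from 51.5% to 63.3% under quantile normalization.

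Tazemetostat had 0 of 7 called by limma against Control (0% of all genes), Tat (0%) or Tat-Cocaine (28.7%), and 0 of 7 over the backgrounds (11.4%). Unadjusted p-values under 0.05 numbered 0, 0, 2 and 1 of the 7, and 576, 851, 6816 and 5244 of all 15890 genes. The 2 against Tat-Cocaine were Prdx1 (0.31, limma adjusted p = 0.071) and Taldo1 (0.36, 0.080), both with no overlap. With the replicate number as a block, Taldo1 (limma adjusted p = 0.020) and Tkt (0.23, 0.027) were called there. Over all genes, same-numbered libraries did not deviate together in that comparison (correlations of 0.11, 0.02 and -0.23). The 1 over the backgrounds was Taldo1 (0.25, 95% interval 0.06 to 0.44, limma adjusted p = 0.066), for which the exact permutation test gave an adjusted p of 0.024 and the difference was above 0 in 3 of 3 backgrounds. It was called by limma without Tat replicate 2 (0.037), Control replicate 2 (0.0497) or Tat-Tazemetostat replicate 3 (0.029). With libraries rescaled to the same sum, the share of higher genes among all calls went from 53.2% to 36.5% against Tat-Cocaine and from 59.2% to 39.1% over the backgrounds. The sum of microglia markers was 1840 to 2957 CPM in Tat-Cocaine-Tazemetostat, against 771 to 1274 CPM in Tat-Cocaine libraries.

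The difference with 4OI was compared directly with that of each other compound over the 3 backgrounds. All 7 genes were higher with 4OI than with Amlexanox, where 13.4% of all genes were called higher, than with Tazemetostat (21.4%) and than with Senicapoc (13.2%). For Nqo1 the 3 log2 values were 2.31, 2.15 and 2.57, with limma adjusted p-values of 1.2e-18, 9.0e-18 and 3.5e-20. For Prdx1, the smallest, they were 0.43, 0.27 and 0.50 (limma adjusted p = 4.5e-05, 0.0042 and 5.0e-06). The compounds share their control libraries and were given at different doses. With libraries rescaled to the same sum, the share of higher genes among all calls went from 51.5% to 36.1% against Amlexanox and from 51.9% to 38.2% against Senicapoc.

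**Figure D5:**
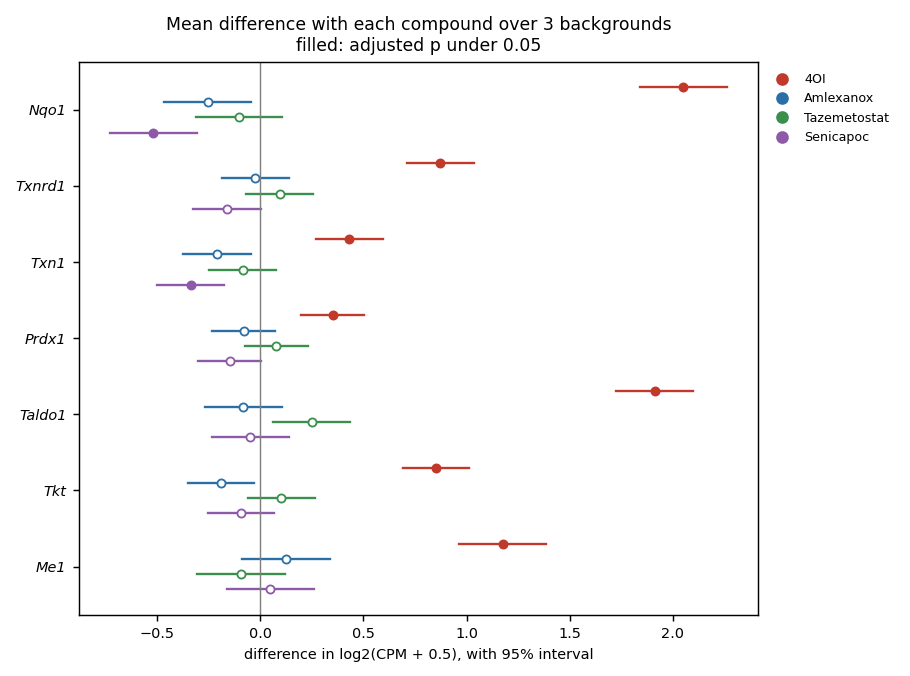
Mean difference in log2(CPM + 0.5) over 3 backgrounds (horizontal axis) with each of 4 small molecules for the 7 genes (vertical axis), with 95% intervals from limma. Filled points have an adjusted p under 0.05; 4OI is to the right of the others for every gene, and Senicapoc is filled for Nqo1 (-0.52) and Txn1 (-0.34).

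Other genes of the same pathways were read from lists, over the 3 backgrounds of 4OI. Over all genes 11% were called higher and 11.8% lower. Of 20 other genes of NADPH supply 5 were higher and 4 lower, with a median of -0.08. Among them Idh1, the cytosolic NADP-dependent isocitrate dehydrogenase, was higher by 0.65 ± 0.07 and the folate enzyme Mthfd1 by 0.63 ± 0.06. The mitochondrial folate enzyme Aldh1l2 was lower, at -0.85 (limma adjusted p = 0.0028). Of 23 other thioredoxin, peroxiredoxin and glutaredoxin genes 4 were higher and 2 lower, with a median of 0.03. Sesn3 (a sestrin, 1.10 ± 0.12), Txnrd3 (a thioredoxin reductase, 0.48) and Sesn1 (0.30) were higher, and Prdx5, a peroxiredoxin found in mitochondria and peroxisomes, was lower (-0.48).

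Of 18 tested genes of quinone, carbonyl and haem reduction 8 were higher and 0 lower (median 0.13), led by Akr1b8 (an aldo-keto reductase, 2.07 ± 0.37), Cbr3 (a carbonyl reductase, 1.83), Aox1 (aldehyde oxidase, 1.68) and Blvrb (biliverdin reductase B, 0.84). Of 18 tested glutathione and iron genes 15 were higher and 0 lower (median 0.82). These included the cystine transporter Slc7a11 (3.01 ± 0.18), haem oxygenase Hmox1 (2.53), Gclm, a subunit of the enzyme that starts glutathione synthesis (2.24), and Gstp1, a glutathione transferase (1.94). Over all 15890 genes tested the median was 0.0097. Of 9 genes that regulate the pathway 4 were higher (Sqstm1 0.78, Mafg 0.46, Keap1 0.44, Bach1 0.26) and 0 lower. Lipid synthesis is a main user of NADPH. Of 8 tested genes of that pathway 4 were higher, among them Acss2 (acetyl-CoA synthetase, 0.53), Slc25a1 (the mitochondrial citrate carrier, 0.42) and the NADPH-using fatty acid synthase Fasn (0.42). Srebf1, which codes for their transcription factor, was lower (-0.62, limma adjusted p = 0.029).

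In cell type markers, 4OI over the 3 backgrounds had 0 of 10 neuron markers called and 4 of 9 astrocyte markers higher (Slc1a2 0.83, S100b 0.73, Gfap 0.50, Sox9 0.33). Microglia markers were lower in 6 of 10 (Aif1 -1.11, Itgam -1.0, Cd68 -0.95, Tmem119 -0.94). The sum of astrocyte markers was 10530 to 12540 CPM in Control and 10600 to 12590 CPM in 4OI libraries. It was 7069 to 9436 CPM in Tat and 9102 to 10890 CPM in Tat-4OI, and 7050 to 8942 CPM in Tat-Cocaine and 9009 to 13760 CPM in Tat-Cocaine-4OI, so that it was higher with no overlap in the last. Their part in the differences of the 7 genes was not tested.

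For Txnrd1, Taldo1, Tkt and Me1, as for Nqo1, the 3 groups with 4OI had the highest means and the third of them did not overlap the group below. Txn1 also had its highest means in these groups, from 247.9 CPM (Tat-4OI) to 287.3 CPM (Tat-Cocaine-4OI), but Tat-4OI overlapped Tat (225.7 CPM). In Prdx1 every group overlapped the next, from 622.9 CPM (4OI) to 361.8 CPM (Tat-Senicapoc), and Tat-4OI was at rank 5.

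The genes whose group means were most like those of Nqo1 were sought among 12055 genes with a mean of at least 5 CPM over 16 groups. Pir (pirin, an iron-binding protein) came first, with a Pearson r of 0.972, followed by Taldo1 (0.966), Vwa8 (0.962), Gsr (glutathione reductase, 0.961), Cat (catalase, 0.961) and Ypel5 (0.960). Tkt came at rank 23 (0.938), Txnrd1 at 58 (0.900), Me1 at 87 (0.863), Txn1 at 89 (0.862) and Prdx1 at 192 (0.783). Among the 7 genes the closest pair was Taldo1 and Tkt (0.978), and the least alike Txn1 and Me1 (0.515). These values describe 16 points, 3 of which contain 4OI and stand apart in most of the genes, and carry no test.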

How the data were processed

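The signal the authors deposited is a CPM value scaled by edgeR's TMM factors, for every gene in each library. PolyA libraries (NEBNext Ultra II Directional) were aligned with STAR 2.7.2 and uniquely mapped reads counted with featureCounts (Subread 1.5.3), per the submitters' processing notes and the study's methods, of which the notes list the builds mRatBN7.2 and hg38 and the methods name Rnor_6.0. The promoter windows are of another build, GRCr8. Library sums were 930399 to 1046892. Only 85.0 to 87.3% of values above 0 were whole reads (within 0.05 read), so count models were not run. The authors' deposited group means, fold changes and p-values of their own comparisons were not used. Values were tested as log2(CPM + 0.5) for genes that reached 0.5 CPM in 3 or more libraries, using limma 3.58.1 (lmFit, eBayes with trend) in R 4.3.3, with 1 mean per group, no covariates and Benjamini-Hochberg adjustment. A CPM of 0.5 stood for 8.58 to 15.0 reads. Single genes were also tested by exact permutation within backgrounds. The exact permutation test of 1 group against another cannot go below p = 0.1. The limma step was run on simulated data with the same spread setting for every gene and no replicate effect. Only the recovery of simulated differences was checked there, so it does not measure the rate of false calls in these data.

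Groups and replicate numbers came from the labels. The 48 within-group pairs of libraries had correlations of 0.987 to 0.999 and a chi-square per degree of freedom of at least 5.83, so 0 were counted as duplicates. Deviations of same-numbered libraries correlated above 0.1 for all 3 numbers in 6 of the 20 comparisons of 2 groups. Among them were 4OI, Tazemetostat and Senicapoc against Control, where the numbers may pair the libraries. With the replicate number as a block, 6, 0 and 0 of the 7 genes were called in these 3, as without it. Of all 120 pairs of groups, 27 passed the same rule. The main test had no block in any comparison, and the block was run as an alternative. The text names the 7 members, up to 4 called genes per list with the largest differences in the pooled 4OI comparison, the 5 other genes most like Nqo1, and markers. Members and lists were chosen with earlier results of these data known. Srxn1 and Pgd were not analysed here. 1 gene that the rule for lists would name is not reported here. Alternatives were pseudocounts of 0.1 and 1, no filter, a minimum of 2 CPM, 3 rescalings, no trend, the compared groups alone, the replicate block and leaving out each library.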

Additional observations from a re-analysis of the deposited data

How the results depend on the processing

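The 7 of 7 genes called higher with 4OI over the 3 backgrounds, and in 4OI against each other compound, stayed at 7 under every alternative run. Of 988 alternative values of 46 gene differences, 935 kept direction and call, 42 lost and 8 gained a call and 3 changed sign. The latter were Me1 in Tat-Amlexanox against Amlexanox, which ranged from -0.23 to 0.109 when 1 library was left out, at 0.109 without Amlexanox replicate 1, 0.0216 without Amlexanox replicate 2 and 0.0439 without Tat-Amlexanox replicate 2. Leaving out 1 library, called genes ranged from 1 to 2 in Tat against Control, 0 to 2 in Tat-Cocaine against Control, 5 to 7 in Tat-Cocaine-4OI against Tat-Cocaine, 0 to 1 in Tat-4OI against 4OI, 0 to 2 in Tat-Tazemetostat against Tazemetostat, 0 to 1 for Tazemetostat pooled and 1 to 2 for Senicapoc pooled. With only the compared groups fitted, which leaves fewer libraries to estimate the spread, the count was 1 in Tat against Control, 0 in Tat-Cocaine against Control, 4 in Tat-Cocaine-4OI and 2 in Tat-Cocaine-Tazemetostat against Tat-Cocaine, 0 in Tat-4OI against 4OI and in Tat-Tazemetostat against Tazemetostat, and 1 for Senicapoc pooled. Calls over all genes then moved by over 1.5 times: 4OI against Control 501 to 101, 4OI difference in Tat minus 4OI difference in Control 79 to 11, 4OI difference in Tat-Cocaine minus 4OI difference in Control 18 to 0, Amlexanox against Control 1804 to 0, Amlexanox pooled 1270 to 543, Cocaine against Control 32 to 0, Senicapoc pooled 184 to 54, Tat against Control 3382 to 1252, Tat-4OI against Tat 2475 to 1134, Tat-Amlexanox against Tat 133 to 0, Tat-Cocaine against Control 2372 to 619, Tat-Cocaine against Tat 3 to 0, Tat-Cocaine-4OI against Tat-Cocaine 1170 to 113, Tat-Cocaine-Amlexanox against Tat-Cocaine 147 to 0, Tat-Cocaine-Senicapoc against Tat-Cocaine 7 to 0, Tat-Senicapoc against Senicapoc 2540 to 1567, Tat-Senicapoc against Tat 65 to 0, Tat-Tazemetostat against Tazemetostat 2554 to 809, Tazemetostat pooled 1811 to 591, cocaine added to Tat pooled 723 to 1093. With the replicate block the count was 5 in Tat against Control (Taldo1, Tkt and Me1 added) and in Tat-Tazemetostat against Tazemetostat, 3 in Tat-Senicapoc against Senicapoc, 2 in Tat-Cocaine against Control, Tat-Amlexanox against Tat, Tat-Cocaine-Tazemetostat against Tat-Cocaine, Tat-Senicapoc against Tat, Amlexanox pooled and the 4OI difference in Tat minus that in Control, and 1 for Tazemetostat pooled. The block moved calls over all genes: 4OI difference in Tat minus 4OI difference in Control 79 to 233, 4OI difference in Tat-Cocaine minus 4OI difference in Control 18 to 68, Amlexanox pooled 1270 to 1906, Cocaine against Control 32 to 95, Senicapoc against Control 0 to 15, Senicapoc pooled 184 to 754, Tat-4OI against 4OI 823 to 1426, Tat-Amlexanox against Tat 133 to 493, Tat-Cocaine against Tat 3 to 16, Tat-Cocaine-Amlexanox against Tat-Cocaine 147 to 338, Tat-Cocaine-Senicapoc against Tat-Cocaine 7 to 18, Tat-Senicapoc against Tat 65 to 646, Tat-Tazemetostat against Tat 0 to 16, Tazemetostat pooled 1811 to 3430, cocaine added to Tat pooled 723 to 1150. Scaling, filter, trend and pseudocount settings moved calls over all genes in Tat-Senicapoc against Tat (65 to between 23 and 31), Tat-Tazemetostat against Tat (0 to between 2 and 6), Cocaine against Control (32 to 72 or 21), Tat-Cocaine-Senicapoc against Tat-Cocaine (7 to between 12 and 16), Tat-Cocaine-Amlexanox against Tat-Cocaine (147 to 91), Tat-Cocaine against Tat (3 to 1), Senicapoc pooled (184 to 116), Senicapoc against Control (0 to 1) and Tazemetostat against Control (0 to 2). The block moved no other count of the 7 genes by over 1.5 times. Rescalings moved the median of all genes by at most 0.0829 (log2). Causes were not tested. The 7 genes had at least 1298 reads per library.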
